A study of Mus musculus with 35 samples.

Results

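The chromatin of mouse embryonic fibroblasts (MEFs) treated with the full chemical cocktail C6FAE was compared with that of cells treated with AE alone, which leaves out 3 of its chemicals. C6FAE holds CHIR99021 (C), compound 6 (6), Forskolin (F), AM580 (A) and EPZ004777 (E). Read from the same letters, AE holds AM580 and EPZ004777, so the groups share these chemicals and differ by C, 6 and F added together. No effect can be given to a single one of the 3 from this pair of groups. Both groups were collected on day 4 of reprogramming and sequenced as 2 ATAC-seq libraries each, 4 of the 35 samples in the series and 4 of its 14 ATAC-seq libraries. Each reaction used 50000 cells and 13 cycles of PCR. The study's methods describe the 2 C6FAE libraries as biological replicates. For AE, the labels number the libraries 1 and 2 and do not say whether they came from separate cultures, so the spread between them may be technical.

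CHIR99021 inhibits the kinase GSK3 and so stabilizes beta-catenin, compound 6 inhibits the type I receptor of TGF-beta, and Forskolin raises cAMP through adenylyl cyclase. AM580 activates retinoic acid receptors, and EPZ004777 inhibits DOT1L, a methyltransferase of histone H3. In ATAC-seq a transposase inserts adapters into DNA that is not covered by nucleosomes, so that reads pile up at promoters, enhancers and other open elements.

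The signal was deposited as RPKM, the read density per kilobase scaled to the size of a library, over 36431 regions with 1 column per treatment merged over its libraries. The libraries themselves were deposited as peak lists, in which each peak has a fold enrichment over the modelled background and a score, its -log10 p. The 36431 regions spanned 74.6 Mb of mm9, with a median length of 1479 bp and a range of 501 to 74539 bp. Since no mm9 annotation was used here, no region was joined to a gene, and the label of fibroblasts was not checked against marker genes.

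The AE libraries held 4429869 and 5357318 tags, and the C6FAE libraries held 7800792 and 5215704. C6FAE replicate 1 stood apart from the other 3 libraries. Peaks whose listed -log10 q reached 1.3 (called enriched peaks here) numbered 15909 in it, against 5567 in C6FAE replicate 2 and 7048 and 5174 in the AE libraries. Past a stricter limit of 5, C6FAE replicate 1 kept 1708 peaks and the other 3 libraries 210 to 230. By both counts C6FAE replicate 2 lay between the AE libraries, and the groups overlapped. With 2 against 2 libraries, the smallest two-sided p of an exact permutation test is 0.33, so counts of peaks were not tested between the groups. The merged C6FAE column holds both C6FAE libraries. Values of single libraries come from the peak lists, and results by length, signal, chromosome and mark rest on the merged columns alone.

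Most regions differed little between the treatments, and those that differed went both ways. Counted on log2(RPKM + 1), C6FAE exceeded AE by 2-fold or more in 4586 of the 36431 regions (12.6%) and lay below it by 2-fold or more in 2943 (8.08%). Higher regions made up 60.9% of those past this threshold (95% Wilson interval 59.8 to 62.0%). The interval covers the number of regions only, since regions are not replicates. The merged columns have no replicates, so no test was made on them. The median difference over all regions was 0.10 (order-statistic interval 0.095 to 0.110), and the quartiles lay at -0.33 and 0.56. Differences of at least 4-fold were reached by 911 higher and 363 lower regions, and of at least 8-fold by 109 and 31.

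The split between higher and lower moved with the scaling of the columns. The column medians were 16.4 RPKM in AE and 17.7 RPKM in C6FAE, a shift of 0.10 on the log2 scale. Centring each column on its median gave 3941 higher regions (10.8%) and 3531 lower ones (9.69%), a share of 52.7% higher. After quantile normalization the counts were 3636 and 3840, and 48.6% were higher. The share of regions past the threshold stayed between 20.5 and 20.7% under these 3 scalings. The number of regions that differed was thus stable to the scaling, while the excess of higher regions shrank with centring and ended with quantile normalization. Summed over the autosomal regions as RPKM times length, the signal of C6FAE was 1.08 times that of AE.

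**Figure D1:**
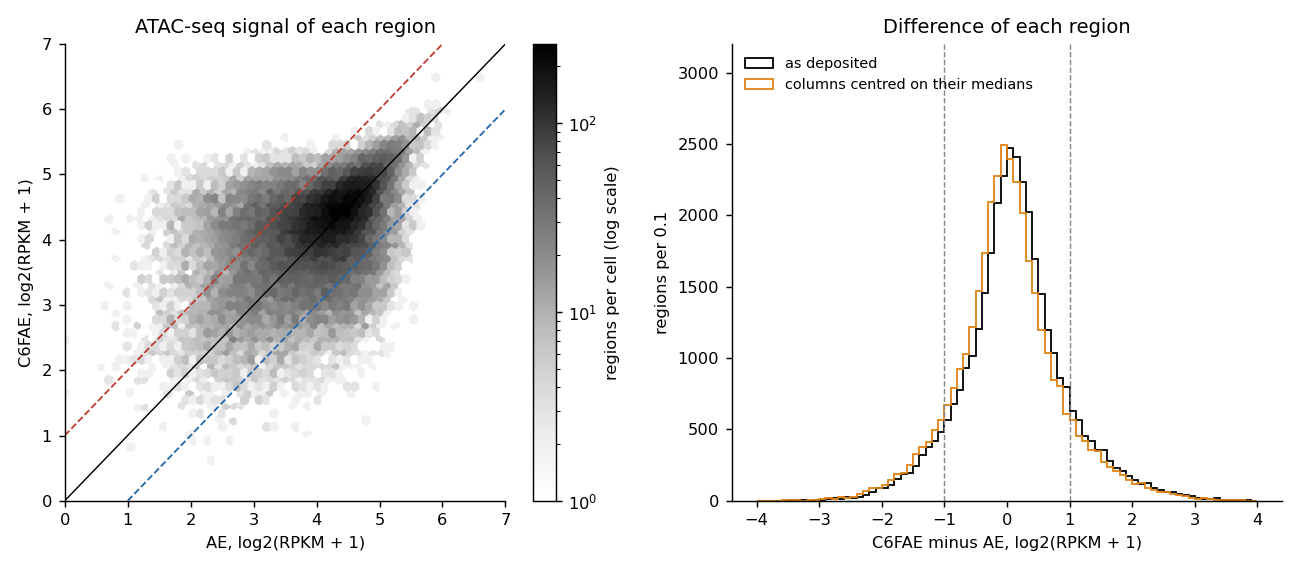
Left, log2(RPKM + 1) of each region in AE (x axis) and C6FAE (y axis), with grey for the number of regions per cell on a log scale, the line of equality in black and the 2-fold lines dashed. Regions above 7 on either axis (21 regions) are not drawn. Right, number of regions (y axis) by their difference C6FAE minus AE in log2(RPKM + 1) (x axis), as deposited in black and with centred columns in orange, without the 13 regions beyond 4. The 4586 regions right of 1 and the 2943 left of -1 shrink and grow to 3941 and 3531 when the columns are centred.

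The regions past the threshold were short. Their low signal in one treatment follows from the 2-fold rule, which used the same columns, so the levels below are a description. Regions higher in C6FAE had a median of 6.21 RPKM in AE and 20.7 RPKM in C6FAE, and a median length of 1017 bp. Regions lower in C6FAE had 22.2 RPKM in AE and 7.32 RPKM in C6FAE, and a median length of 866 bp. The 28902 other regions were longer, at 1735.5 bp, with 17.4 RPKM in AE and 18.2 RPKM in C6FAE. By length, the share of higher regions went from 19.2% in the shortest 20% of regions (501 to 761 bp) to 3.43% in the longest 20% (3046 bp and over). The share of lower regions went from 15.9 to 0.494% over the same range. By the mean RPKM of both columns, 19.8% were higher and 11.0% lower in the lowest 20%, against 2.65 and 3.83% in the highest 20%. Shorter regions hold fewer tags, and how far counting error moved these shares was not tested. The regions lay on all autosomes and X, with 9.90% (chromosome 7) to 15.3% (chromosome 14) higher and 5.42% (X) to 9.90% (chromosome 12) lower.

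The peak lists show how the single libraries stood at these regions. Peaks were taken as the 20000 of highest score in each library. In the set higher in C6FAE, 52.2 and 33.3% of regions held such a peak in C6FAE replicates 1 and 2, and 2.64 and 3.07% in AE replicates 1 and 2. Among the regions lower in C6FAE, 4.32 and 3.06% held one in the C6FAE libraries, and 52.9 and 36.8% in the AE libraries. Over all regions the shares were 47.5 and 35.1% in the C6FAE libraries and 38.5 and 34.1% in the AE libraries. The higher regions thus held top peaks about as often as all regions did in C6FAE, with 33.3 against 35.1% in replicate 2, and far less often than all regions in AE. At the lower regions AE replicate 1 was above its share over all regions, AE replicate 2 was near it, and both C6FAE libraries were far below theirs. The libraries are part of the merged columns that chose the sets, so these shares describe the sets and are no independent support.

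Regions were also ranked by fold enrichment within the 4 libraries, with a region that had no listed peak placed lowest. Over all regions, both C6FAE libraries were above both AE libraries in 9762 (26.8%), and both AE libraries were above both C6FAE libraries in 3752 (10.3%). In the regions higher in C6FAE the first order held for 3216 of 4586 (70.1%) and the second for 2. In the regions lower in C6FAE the second order held for 1658 of 2943 (56.3%) and the first for 5. The same 4 libraries make up the merged columns that chose these sets, so the orders within the sets are a description and no independent support. With each library centred on its median, the counts over all regions were 8006 (22.0%) and 7082 (19.4%). The excess of C6FAE over AE thus became smaller when the libraries were set equal, as it did in the RPKM columns. A listed peak in both C6FAE libraries and in neither AE library was found in 783 regions (2.15%), and the reverse in 608 (1.67%).

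The 5 largest increases and the 5 largest decreases were taken from these 783 and 608 regions. Values are given as a description, since the same libraries chose them. All 10 regions were short, at 510 to 873 bp.

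The largest increase lay at chrX:48227413-48227948 (mm9) and had 0.0173 RPKM in AE and 32.3 RPKM in C6FAE. Its fold enrichment was 3.81 in C6FAE replicate 1 and 2.25 in C6FAE replicate 2, with no listed peak in AE. The second lay at chr17:62542507-62543189, was listed at 0 RPKM in AE and had 28.5 RPKM in C6FAE, with fold enrichments of 2.94 and 2.74. Those peaks were low in absolute terms, since the lists of C6FAE start at fold enrichments of 1.98 and 1.78. The other three increases lay on chromosome 18, at chr11:38483703-38484319 and at chr16:51921080-51921637, with 24.4 to 27.3 RPKM in C6FAE and at most 0.519 RPKM in AE.

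In the other 5 columns the increases had 0.975 to 22.7 RPKM, so these regions were not without signal there. At the X-linked region the RPKM was 14.7 in CFAE, 6.54 in C6AE, 5.21 in 6FAE, 2.49 in Basal and 9.98 in Control. Across the 5 regions CFAE had 11.2 to 22.7 RPKM, Basal 1.43 to 5.88 RPKM and Control 1.86 to 9.98 RPKM. C6FAE was the highest and AE the lowest of the 7 columns in all 5.

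The largest decrease lay at chr8:104397519-104398203 and had 35.2 RPKM in AE and 1.15 RPKM in C6FAE. Its fold enrichment was 3.27 in AE replicate 1 and 2.12 in AE replicate 2, with no listed peak in C6FAE. The second, at chr14:49996293-49996819, had 22.8 RPKM in AE and 0.449 RPKM in C6FAE, and was the only one of the 10 to overlap a region of H3K27me3. The other three lay at chr9:117292190-117293062, chr6:137732435-137732945 and chr13:8781640-8782149, with 25.0 to 38.1 RPKM in AE and 0.824 to 1.55 RPKM in C6FAE. In all 5, AE was the highest and C6FAE the lowest of the 7 columns, with 8.36 to 24.8 RPKM in Basal and 5.53 to 15.2 RPKM in CFAE.

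**Figure D2:**
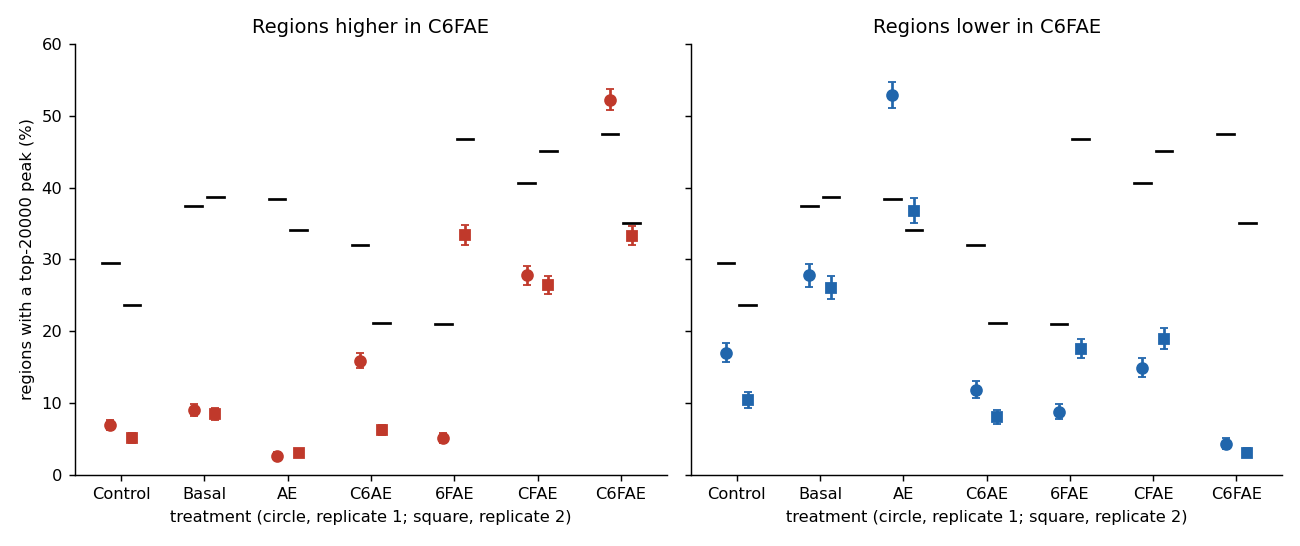
Share of regions that held one of the 20000 peaks of highest score (y axis, %) in each of the 14 ATAC-seq libraries (x axis, by treatment), for the 4586 regions higher (left) and the 2943 lower (right) in C6FAE than in AE. Points are libraries with 95% Wilson intervals over regions, and black bars give the share over all 36431 regions. Left, the CFAE libraries (27.8 and 26.4%) lie above the Basal and Control libraries, and right, the Basal libraries (27.8 and 26.0%) lie above all libraries but those of AE.

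Peaks that the treatments did not share were then counted without the regions. The 20000 peaks of highest score in the 4 libraries merged into 46856. Of these, 6020 were present in all 4 libraries, 2086 in both C6FAE libraries and neither AE library, and 1269 in both AE libraries and neither C6FAE library. Peaks of a single library numbered 6014 and 8066 for C6FAE and 7906 and 8594 for AE, more than either treatment-specific set. They had a median length of 415 bp, against 1663 bp for peaks of C6FAE alone and 1345 bp for peaks of AE alone. No library had 20000 enriched peaks, so the top peaks of each also include peaks below that limit. The C6FAE libraries shared 53.2% of their peaks and the AE libraries 44.9%. Between treatments the shares were 39.8 to 49.6%, and the 49.6% of AE replicate 1 in C6FAE replicate 1 exceeded the share between the AE libraries.

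The excess of C6FAE peaks depended on the peak threshold. With all listed peaks, 20164 were in C6FAE alone and 36929 in AE alone. The lists differed in length, with 266306 and 477218 peaks in C6FAE replicates 1 and 2 and 378580 and 495425 in AE. C6FAE replicate 1, the library with the most tags, had the shortest list, which limits the peaks present in both C6FAE libraries. Enriched peaks gave counts of 1345 and 211. With the top peaks and without AE replicate 1 the counts were 3403 and 9896, and without AE replicate 2 they were 3177 and 9214. A peak then had to be in 1 AE library rather than 2. Without C6FAE replicate 1 they were 10216 and 2463, and without C6FAE replicate 2 they were 8152 and 1640, with the rule eased for C6FAE instead. Leaving out a library thus favours its own treatment by construction. These counts cannot show whether the excess depended on a single library. The peaks of C6FAE alone had median fold enrichments of 3.43 and 2.90 in C6FAE and still 2.33 and 2.18 where AE listed a peak. At least 87.6% of them overlapped some listed peak in each AE library. Absence from the top peaks of a treatment therefore mostly did not mean absence from its lists. The higher fold enrichment in the treatment that held the peaks follows from choosing them by score.

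Peaks chosen in the first libraries were looked for in the second, which had no part in the choice. Of 10160 peaks in C6FAE replicate 1 and not in AE replicate 1, 31.9% (31.0 to 32.8%) were among the top peaks of C6FAE replicate 2 and 19.8% (19.0 to 20.5%) among those of AE replicate 2. Of 10080 peaks in AE replicate 1 and not in C6FAE replicate 1, 16.7% (16.0 to 17.4%) were found in AE replicate 2 and 8.59% (8.06 to 9.15%) in C6FAE replicate 2. With the choice made in the second libraries, C6FAE peaks were found in 28.9% of cases in C6FAE replicate 1 and 15.2% in AE replicate 1. AE peaks were then found in 20.9% of cases in AE replicate 1 and 17.7% in C6FAE replicate 1. In all 4 choices the library of the same treatment held more of the peaks than the library of the other. This order did not hold at every peak threshold. With all listed peaks, C6FAE peaks were found in 42.3% of cases in the same and 43.0% in the other treatment when chosen in replicate 1, and in 17.0 and 21.8% when chosen in replicate 2. In both cases the AE list searched was longer than the C6FAE list searched, and how far list length moved these shares was not tested. Enriched peaks of AE replicate 2 were found in 41.5% of cases in AE replicate 1 and in 61.1% in C6FAE replicate 1, and those past a -log10 q of 5 in 21.1 and 68.9%. C6FAE replicate 1 held the most peaks past both limits.

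**Figure D3:**
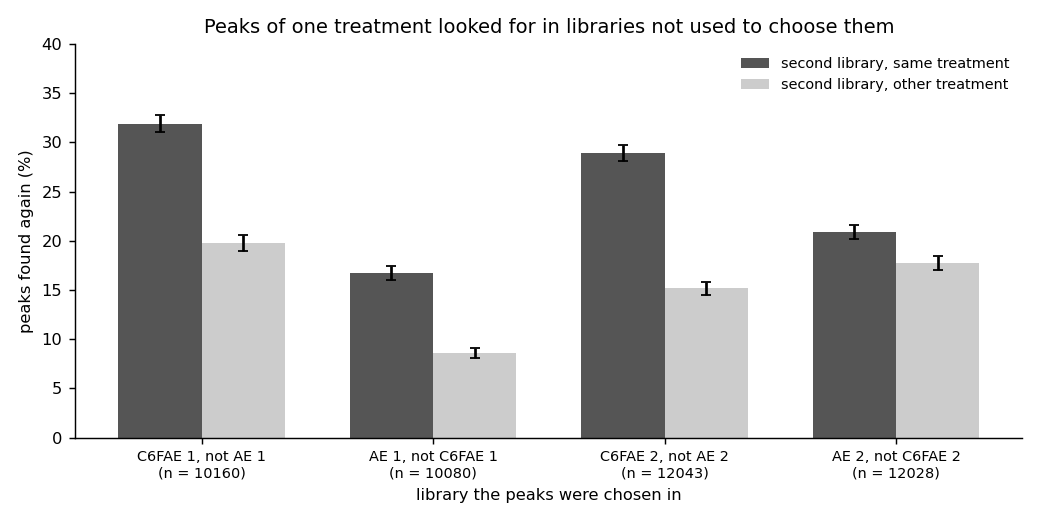
Peaks present in one library and absent from the same-numbered library of the other treatment (x axis, with their number), and the share found among the 20000 top peaks of the library of the same treatment (dark) and of the other treatment (light) that had no part in the choice (y axis, %). Error bars are 95% Wilson intervals over peaks. The dark bar is the higher in all 4 pairs, from 31.9 against 19.8% for C6FAE replicate 1 to 20.9 against 17.7% for AE replicate 2.

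Where all 4 libraries listed a peak, differences of fold enrichment were also small against the spread between libraries. A listed peak in all 4 libraries was present in 26510 regions, and in these the library-centred log2 fold enrichment had an SD over regions of 0.31 between the C6FAE libraries and 0.31 between the AE libraries. Between a C6FAE and an AE library the SD was 0.34 to 0.36. Of the 26510 regions, 64 were at least 2-fold apart between the C6FAE libraries and 76 between the AE libraries, against 157 to 229 between the treatments. The difference of replicates 1 (C6FAE minus AE) and that of replicates 2, which share no library, had a Pearson r of 0.23 over the 26510 regions, and 0.22 with the numbers crossed. The 77 regions at least 2-fold higher in C6FAE by replicates 1 had a median difference of 1.12 there and 0.37 by replicates 2, where 76.6% were above 0. The 87 regions at least 2-fold lower had -1.09 there and -0.38 by replicates 2, where 85.1% were below 0. Over all regions 50.9% were above 0 by replicates 2, so the chosen regions kept their side more often and lost most of their size.

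Limma was fitted to the log2 fold enrichment of the 26510 regions, and 3 regions (0.0113%) passed an adjusted p of 0.05, all higher in C6FAE. The fit held 1761 of the 4586 regions higher in RPKM, 1118 of the 2943 lower ones and 23631 of the 28902 others. The 783 and 608 regions listed in both libraries of one treatment and neither of the other could not be fitted. The calls therefore leave most of the 2-fold sets untested. No region was significantly lower, and 1357 higher and 266 lower regions had an unadjusted p under 0.05. The libraries were not centred in this fit. Their median fold enrichments were 3.09 and 2.47 in C6FAE replicates 1 and 2, and 2.67 and 2.45 in AE replicates 1 and 2. The median SE of a difference was 0.29. The 3 regions fall outside the rule for named regions and were chosen by this test. The first, chr16:57300930-57304581, had fold enrichments of 6.94 and 3.61 in C6FAE and 1.91 and 1.85 in AE (log2 difference 1.41, SE 0.30, limma adjusted p = 0.0277). It had 7.46 RPKM in AE and 50.6 RPKM in C6FAE. The second, chr14:61664461-61666598, had 6.46 and 6.89 in C6FAE and 2.37 and 2.54 in AE (log2 difference 1.44, SE 0.31, limma adjusted p = 0.0277), and it overlapped regions of both histone marks. The third, chr9:59928784-59931873, had 7.29 and 5.65 in C6FAE and 2.92 and 1.92 in AE (log2 difference 1.44, SE 0.31, limma adjusted p = 0.0277). In each of the 3, both C6FAE libraries lay above both AE libraries, as they did in 26.8% of all 36431 regions. The test chose these regions from the same libraries, so this order adds no support.

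With each library centred on its median, 4 higher (0.0151%) and 2 lower (0.00754%) regions passed, the 3 regions above among them. At an unadjusted p under 0.05 by limma, 1440 regions were then higher and 1548 lower, so the excess of higher regions was gone. The added higher region, chr11:108481453-108483270, had fold enrichments of 5.92 and 4.18 in C6FAE and 2.01 and 2.01 in AE (limma adjusted p = 0.0394). The lower regions were chr3:93340625-93341836, with 2.60 and 2.46 in C6FAE and 6.36 and 5.56 in AE (limma adjusted p = 0.0321), and chr11:97068283-97069621, with 2.11 and 2.45 in C6FAE and 5.37 and 4.65 in AE (limma adjusted p = 0.0394). Their merged RPKM went the same way, from 68.1 in AE to 15.8 in C6FAE for the region of chromosome 3. As listed, the 3 added regions had limma adjusted p-values of 0.109, 0.207 and 0.346. The count of calls changed with each library left out. Without C6FAE replicate 2, 705 regions were higher and 3 lower, without C6FAE replicate 1, 1 region was higher and 0 lower (838 and 872 at an unadjusted p under 0.05), and without either AE library none passed by limma (267 and 80 regions at an unadjusted p under 0.05 without AE replicate 1, and 111 and 150 without AE replicate 2). With centred libraries, leaving out C6FAE replicate 2 gave 0 and 0 by limma (1352 and 1635 at an unadjusted p under 0.05). A treatment left with 1 library was assumed in these fits to vary like the other.

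Other treatments that contain some of the 3 chemicals had libraries of their own, which took no part in the split into higher and lower regions. 6FAE lacks CHIR99021, CFAE lacks compound 6 and C6AE lacks Forskolin, and each was set against Basal, a treatment that the study names without giving its contents for this assay. At the regions higher in C6FAE than in AE, the median difference from Basal in log2(RPKM + 1) was 0.80 in CFAE, 0.43 in 6FAE and 0.14 in C6AE. Over all regions these differences were 0.33, -0.0023 and -0.21. At the regions lower in C6FAE, the median differences were -0.14 in CFAE, -0.37 in 6FAE and -0.56 in C6AE. Relative to all regions, the higher regions were thus above and the lower regions below in each of the 3 treatments, by 0.35 to 0.48 and by 0.34 to 0.47. The 3 differences share the Basal column and are not independent of each other.

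The values against Control were less even. At the higher regions the differences from Control were 1.02 in CFAE, 0.67 in 6FAE and 0.35 in C6AE, against 0.56, 0.24 and 0.032 over all regions. At the lower regions they were 0.27, 0.035 and -0.13. Basal itself stood 0.20 above Control at the higher regions and 0.41 above it at the lower regions, against 0.23 over all regions. The regions lower in C6FAE had medians of 14.3 RPKM in Basal and 10.2 RPKM in Control, against 14.6 and 11.6 RPKM over all regions. The Basal libraries had 6708 and 7313 enriched peaks, from 6784105 and 7337786 tags. The Control libraries had 3040 and 1982, from 3800049 and 4798705 tags. How far this difference between the libraries moved the RPKM was not tested.

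**Figure D4:**
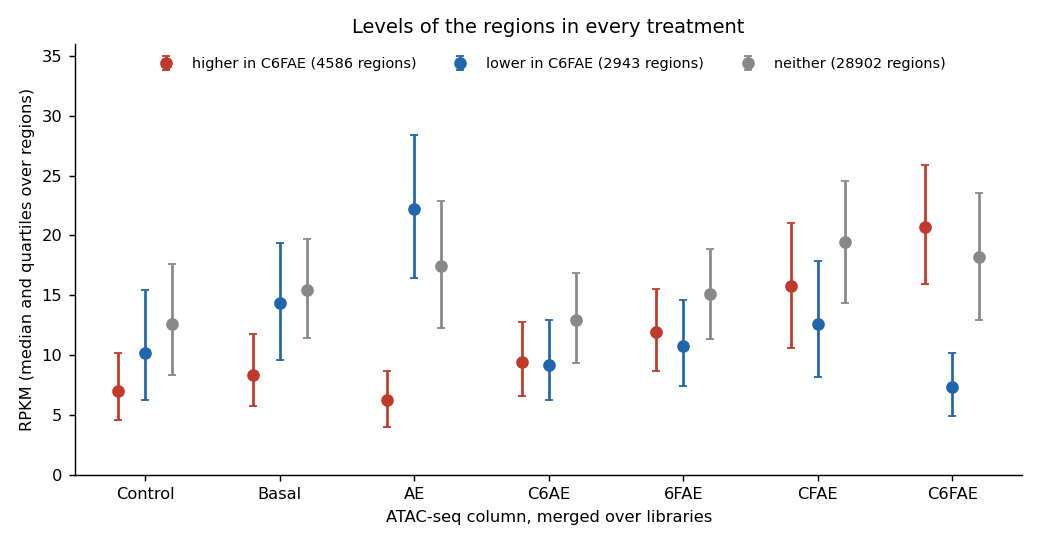
RPKM (y axis, median with quartiles over regions) in the 7 merged ATAC-seq columns (x axis) for the regions at least 2-fold higher in C6FAE than in AE (red), at least 2-fold lower (blue) and neither (grey). AE and C6FAE chose the sets. In the other columns the higher regions run from 7.01 RPKM in Control to 15.8 RPKM in CFAE, and the lower regions from 9.15 RPKM in C6AE to 14.3 RPKM in Basal.

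In the single libraries, the share of higher regions with a top peak was 27.8 and 26.4% in CFAE, 5.08 and 33.4% in 6FAE, and 15.9 and 6.26% in C6AE. The Basal libraries held one in 9.03 and 8.42% of them and the Control libraries in 6.87 and 5.08%. The CFAE libraries lay above all Basal and Control libraries, whereas 6FAE replicate 1 and C6AE replicate 2 lay among them. The shares over all regions were 40.7 and 45.1% in CFAE, 21.0 and 46.7% in 6FAE, 32.0 and 21.1% in C6AE, 37.5 and 38.7% in Basal, and 29.5 and 23.7% in Control. Each of these 10 libraries was therefore below its own share over all regions at the higher regions, and the CFAE libraries had a higher share over all regions than Basal or Control. As a ratio to that share, CFAE had 0.682 and 0.586, 6FAE 0.242 and 0.715, C6AE 0.497 and 0.296, Basal 0.241 and 0.218, and Control 0.233 and 0.214. At the lower regions the Basal libraries held a top peak in 27.8 and 26.0% of cases and the Control libraries in 17.0 and 10.4%. The CFAE libraries held one in 14.9 and 18.9%, the 6FAE libraries in 8.73 and 17.5%, and the C6AE libraries in 11.8 and 8.05%. Both Basal libraries lay above the 8 libraries of CFAE, 6FAE, C6AE and Control there, also as a ratio to the share over all regions (0.741 and 0.673 against 0.367 to 0.575). These libraries also differed in enriched peaks, with 8537 and 13723 in CFAE, 1027 and 13337 in 6FAE, and 3810 and 810 in C6AE. No difference between these treatments was tested.

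The regions that differed mostly overlapped no listed region of either histone mark measured on the same day. The regions of each mark are listed once for all treatments, so an overlap does not show the mark in AE or C6FAE. Nor does a missing overlap show its absence, as the H3K27me3 libraries of AE and C6FAE had only 4115 and 82 enriched peaks. Regions with or without a mark are meant in this sense below. H3K4me3 marks active and poised promoters, and H3K27me3 is laid down by Polycomb complexes at repressed genes. Of all regions, 31.2% overlapped a region of the H3K4me3 table, against 6.74% (6.05 to 7.50%) of those higher and 2.21% (1.74 to 2.81%) of those lower in C6FAE. For H3K27me3 the shares were 9.37% of all, 9.51% (8.69 to 10.4%) of the higher and 4.42% (3.73 to 5.22%) of the lower regions. No region of either mark was overlapped by 86.5% of the higher and 93.7% of the lower regions, against 63.7% of all.

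Read by mark, 1.86% of the 9822 regions with H3K4me3 alone were at least 2-fold higher in C6FAE and 0.560% lower. Of the 23194 regions without a mark, 17.1% were higher and 11.9% lower. Regions with H3K27me3 alone had 16.5% higher and 6.39% lower, and those with both marks 8.20 and 0.651%. Regions with H3K4me3 alone were also long (a median of 2923 bp against 1092 bp without a mark), so the shares were taken within 5 groups of equal size by length. In the shortest group 8.75% of the regions with H3K4me3 alone and 19.8% of those without a mark were higher, and 3.80 and 17.0% lower. In the longest group the values were 0.370 and 9.87% higher, and 0.0435 and 1.68% lower. The order of these 2 classes was the same in all 5 groups. At the 1536 regions with both marks the median RPKM was 17.1 in AE and 21.3 in C6FAE, with a median log2 difference of 0.28, and with H3K4me3 alone it was 21.8 and 23.4, with 0.098.

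**Figure D5:**
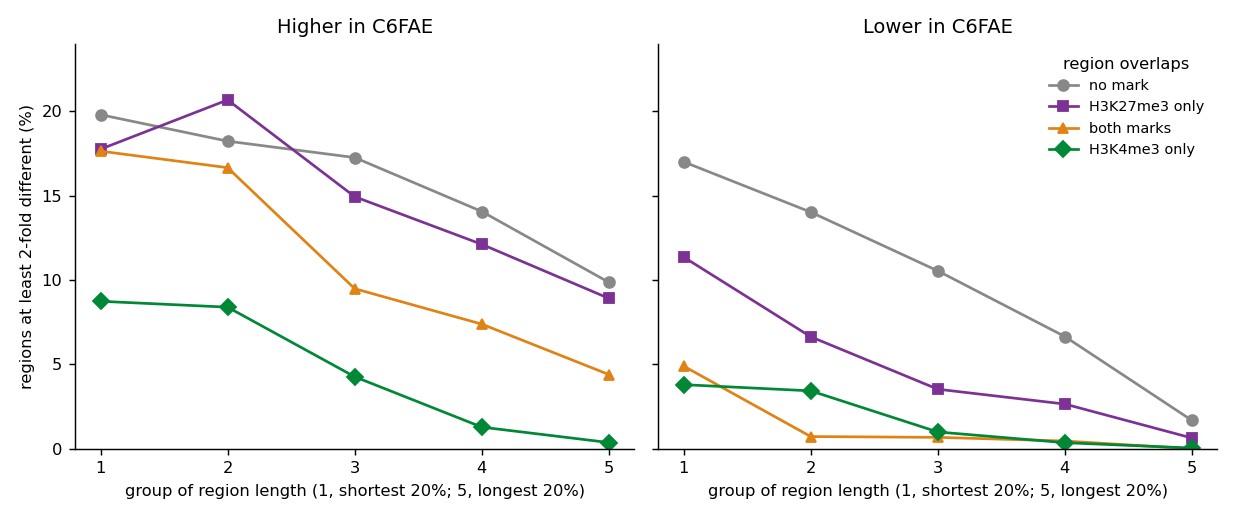
Share of regions at least 2-fold higher (left) or lower (right) in C6FAE than in AE (y axis, %) within 5 groups of region length (x axis), for regions that overlap no mark, H3K27me3 alone, both marks or H3K4me3 alone. In each group the share is lower with H3K4me3 alone than without a mark, 8.75 against 19.8% (higher) and 3.80 against 17.0% (lower) in the shortest.

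The level of the marks in AE and C6FAE rests on 1 library each. The H3K4me3 libraries had 36473 (AE) and 31031 (C6FAE) enriched peaks, from 4577367 and 3296306 tags. The H3K27me3 libraries had 4115 and 82 enriched peaks, from 5537372 and 5919506 tags. H3K4me3 in RPKM was lower in C6FAE in most places, with a median log2 difference of -0.69 (quartiles -0.91 and -0.48) over its 12566 regions. At the 303 of them that overlapped only higher ATAC-seq regions it was -0.55, and at the 64 that overlapped only lower ones it was -0.75. Relative to all H3K4me3 regions these were 0.14 and -0.066. The difference was -0.69 where only ATAC-seq regions of neither kind were overlapped, and -0.67 at 1443 H3K4me3 regions without an ATAC-seq region. With 1 library each, a lower H3K4me3 level and a difference between the libraries cannot be told apart. For H3K27me3 the median difference was -0.57 over 19224 regions, -0.92 at 402 that overlapped higher and -0.79 at 123 that overlapped lower ATAC-seq regions, and -0.84 at 2318 that overlapped regions of neither kind. With 82 enriched peaks in the C6FAE library, a lower H3K27me3 level and a weaker library cannot be told apart.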

How the data were processed

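The members and lists were chosen with earlier results of these data known. Per the labels, the submitters' processing notes name mm9, Bowtie2, MACS2 and deepTools 3.1.0. The authors deposited RPKM per region (bins made with deepTools, 1 ATAC-seq column per treatment merged over its libraries; how they were merged is not given in the sources used here) and, per library, MACS 2.1.2 lists of broad peaks (p-value threshold 0.05, no local background, no control library, tags extended to 250 bp, 1 tag kept per position). The deposited lists give the fold enrichment as a ratio to the modelled background, the pileup of tags as a signal, and -log10 p and -log10 q. Their headers say that q was not calculated, yet the column holds values, which were used as listed. The ChIP-seq columns are 1 library each, and 3 ChIP-seq samples whose title and treatment label disagree were left out.

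Differences were computed on log2(RPKM + 1), with a pseudocount of 1, so folds of low regions are understated. Regions were counted at a difference of 1 (2-fold). Region starts and ends equal listed peak starts and ends, and every region held a peak with a -log10 p of at least 3 in one of the 14 lists. Peaks overlapped when they shared 1 bp. Limma 3.58.1 (R 4.3.3, trend, Benjamini-Hochberg over all regions fitted) compared 2 C6FAE with 2 AE libraries on the log2 fold enrichment of the highest peak in a region. Its p-values measure only the spread between these libraries. Depth is given as tags per library. Wilson and order-statistic intervals (95%) cover only the number of regions or peaks, which are not replicates, and hold no error of the tag counts. PCR copies cannot be told from independent molecules. Named regions were the 5 largest increases and decreases where both libraries of one treatment, and neither of the other, list a peak. Genes near regions and motifs were planned and not analysed here, since the reference tables used are of GRCm38. One named position is not reported here. The scripts were tested on simulated data. Scripts used matplotlib 3.10.9, scipy 1.17.1, pandas 2.3.3, numpy 2.4.6 and Python 3.11.15. Pseudocounts, scalings, filters, peak thresholds, overlaps, the replicate block and the libraries were varied.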

Additional observations from a re-analysis of the deposited data

How the results depend on the processing

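Depth and the number of libraries limit these results: 2 libraries per treatment, 1 merged RPKM column without error, and 1 library that stands apart. The counts of regions higher and lower were within 1.5 times of the reported counts under a pseudocount of 0.1, all scalings and autosomes only. They were 1355 and 730 (65.0% higher) with a pseudocount of 10, 2692 and 1944 (58.1% higher) without the lower quartile of mean RPKM, and 8675 and 6017 (59.0% higher) at 1.5-fold. The share higher was 52.7% with centred columns, 48.6% after quantile normalization and 56.7% with columns centred on the most open 10% of regions. The median difference was 0.068 with a pseudocount of 10, 0.084 without the lower quartile, 0.051 with the most open 10%, 0.0048 after quantile normalization and -0.00022 with centred columns, where it is set to about 0 by construction.

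Peaks in C6FAE alone and in AE alone numbered 20164 and 36929 with all listed peaks (35.3% in C6FAE), 1345 and 211 (86.4%) for enriched peaks, and 100 and 6 (94.3%) past a -log10 q of 5. Leaving out each library gave 3177 to 10216 in C6FAE, 1640 to 9896 in AE and 25.6 to 83.3% in C6FAE, with the order reversed without AE replicate 1 (25.6%) and without AE replicate 2 (25.6%). Leaving out a library eases the rule for its own treatment, so this reversal follows from the rule. The share found again in the same minus the other treatment was 12.2 points for C6FAE and 8.11 for AE. It was -0.793 and 2.91 with all listed peaks, 6.45 for C6FAE with enriched peaks, 1.10 and 9.43 past a -log10 q of 5, 10.5 and 6.55 at a 50% overlap, and 13.7 and 3.17 when chosen in the libraries numbered 2. Chosen in those libraries, it was -4.81 for C6FAE with all listed peaks, and for AE it was -19.7 with enriched peaks and -47.8 past a -log10 q of 5.

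Limma called 3 regions higher and 0 lower. The counts were 4 and 2 with centred libraries, 2 and 1 after quantile normalization, 5 and 0 with unlisted values at the lowest listed value, 7 and 0 with 14 libraries, and 5 and 3 on pileup scaled to tags. Leaving out each library gave 0 to 705 higher and 0 to 3 lower. With centred libraries, chosen after seeing the data, leaving one out gave 23 and 113 without AE replicate 1, 12 and 29 without AE replicate 2, and 0 and 0 by limma without either C6FAE library (1464 and 696 at an unadjusted p under 0.05 without replicate 1, 1352 and 1635 without replicate 2). Chosen likewise, unlisted values with centred libraries gave 0 and 0 by limma (1851 and 2364 at an unadjusted p under 0.05), and 14 centred libraries gave 6 and 8. With the replicate number as a block, limma called 38 higher and 3 lower, and 77 and 78 with centred libraries; the peaks in one treatment only are the same 2086 and 1269 by construction. The difference between the 2 C6FAE libraries and that between the 2 AE libraries had a correlation of 0.0050 over 26510 regions. Whether same-numbered libraries share more than a number was not tested.

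Peaks past a -log10 q of 5 numbered 210 and 230 in AE and 1708 and 226 in C6FAE, and those of at least 5-fold enrichment 440 and 361 in AE and 1815 and 399 in C6FAE. In sets from centred columns, 5.40% of higher regions had H3K4me3, and the differences from Basal at the higher regions were 0.46 in 6FAE and 0.84 in CFAE. Of the recomputed values that were labelled, 6 changed direction, 75 moved and 39 stayed. The shares of peaks in C6FAE without an AE library are among the 6, and there the rule itself was eased. The labels of counts compare size only, so a change in the order of higher and lower counts is not among the 6. The -4.81, -19.7 and -47.8 points of peaks chosen in the libraries numbered 2 were not labelled. The cause of a move was not tested unless named. The alternatives on genes near regions and on motifs were not run.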

Other observations

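The nearest neighbours of the regions were compared. Of the 3798 regions higher in C6FAE whose nearest other region lay within 50 kb, 19.9% had a higher region as that neighbour, against 12.3% of all 31470 regions with such a neighbour. Of the 2391 lower regions, 9.87% had a lower neighbour, against 7.75% of all, and 10.5% had a higher one, against 12.3% of all. With centred columns the values were 17.1 against 10.5% and 12.2 against 9.37%. No test was made, since neighbouring regions are not independent.

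The 2 regions of the mitochondrial genome, which holds no nucleosomes, had 13251 and 10006 RPKM in AE and 11408 and 8765 RPKM in C6FAE. They were 2 of the 21 regions with over 7 on the log2(RPKM + 1) scale in either column.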
